A study of Mus musculus with 23 samples.

Results

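Blood-brain barrier endothelial genes were described in the hippocampus of mice on a chronic alcohol liquid diet with or without urolithin A (UA), a gut microbial metabolite of ellagitannins. The 10 genes were Cldn5, Rasip1, Slc38a5, Tgm2, Slc2a1, Pecam1, Flt1, Abcb1a, Ly6c1 and Mfsd2a, found by symbol among the 19733 genes of the table. They were chosen by measured values of the same mice: Rasip1 had a lower mean with alcohol, and Slc38a5 and Tgm2 had a higher mean with alcohol and UA, than in the controls. Differences from the Ctrl group are therefore given for these genes as a description, with no test. The 23 male C57BL/6J mice, wild type and 6 weeks old when acquired, fell into 9 Ctrl, 7 EtOH and 7 EtOH-UA mice. Ctrl mice received a control liquid diet, and EtOH and EtOH-UA mice received an ethanol liquid diet, for 16 weeks. Ctrl and EtOH mice were gavaged daily with the carboxymethylcellulose vehicle at 0.05%, and EtOH-UA mice were gavaged daily with UA at 200 mg/kg/day in the same vehicle. All groups went through 1 week of behavior testing before the hippocampus was taken. UA was not given without alcohol, so an effect of UA by itself cannot be told apart from its effect in alcohol-fed mice.

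Brain capillaries are lined by endothelial cells that are sealed to one another by tight junctions and carry few vesicles, so that most solutes enter the brain through dedicated transporters. This barrier is formed under the influence of Wnt ligands and Norrin from neural cells, and pericytes and astrocyte endfeet maintain it. Claudin-5, the protein of Cldn5, is the main claudin of these junctions. Pecam1 encodes the adhesion molecule CD31, and Rasip1 encodes an effector of the small GTPases Rap1 and Ras that acts in junctions and lumens of endothelial cells. Slc2a1 encodes the glucose transporter GLUT1, Slc38a5 an amino acid transporter that carries glutamine, Mfsd2a the transporter of lysophosphatidylcholine with docosahexaenoic acid, and Abcb1a the drug efflux pump P-glycoprotein. Flt1 encodes VEGF receptor 1, Ly6c1 a surface protein of brain endothelium in mice, and Tgm2 a transglutaminase that crosslinks proteins and is also made by other cell types.

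The values were FPKM (fragments scaled by transcript length and by library size), as the authors deposited them. Libraries were not alike in 3 respects that touch the genes below. Summed FPKM ran from 330456 to 361354 in Ctrl mice, from 327896 to 366930 in EtOH mice and from 333801 to 404609 in EtOH-UA mice, with the largest sum in EtOH-UA mouse 2 (mice are numbered within a group by the order of their column numbers). Transthyretin (Ttr), the most abundant transcript of the choroid plexus, ran from 3.88 to 2913.56 FPKM in Ctrl mice, from 58.36 to 5628.27 FPKM in EtOH mice and from 11.34 to 7704.77 FPKM in EtOH-UA mice. The 5 blood cell genes summed to 40.3 to 137 FPKM in Ctrl mice, 29.3 to 201 FPKM in EtOH mice and 84.3 to 276 FPKM in EtOH-UA mice. The neuronal genes Snap25 and Slc17a7 averaged 1100 and 429 FPKM, as the abundant transcripts of hippocampal tissue, and the 32 endothelial identity genes together summed to only 172 to 240 FPKM over all mice. The files hold no counts. From even steps between the lowest values of 61 genes, 1 FPKM was estimated to stand for 16.8 fragments in each kilobase.

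All 10 genes were measured in every mouse and passed the filter of a mean of at least 0.1 FPKM. Their order of level, per kilobase, was led by the glucose transporter Slc2a1, with a mean of 30.6 FPKM over the 23 mice, and Ly6c1, with 27.5 FPKM. Slc2a1 was above Ly6c1 in 19 of 23 mice. The junction gene Cldn5 followed at 14.98 FPKM and the receptor Flt1 at 11.6 FPKM, in this order in 21 of 23 mice. Abcb1a, at 8.40 FPKM, and Mfsd2a, at 7.97 FPKM, were neighbours whose order held in only 15 of 23 mice, so their levels were not separated by the spread between mice. Pecam1 averaged 6.29 FPKM. Tgm2, at 3.35 FPKM, was above Rasip1, at 2.88 FPKM, in 17 of 23 mice. The glutamine carrier Slc38a5 was the lowest in every mouse, with 1.32 FPKM, and only 43.8 fragments per mouse stood behind it by the estimate of depth, a counting error of 15.1%. Slc2a1 had about 1670 fragments and a counting error of 2.44%.

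The genes also differed in how much they varied among mice. The coefficient of variation over the 23 mice was 25.3% for Slc38a5, 21.7% for Cldn5 and 20.3% for Tgm2, against 8.47% for Abcb1a and 9.41% for Slc2a1. Cldn5, the third most abundant of the 10, ranged from 11.2 to 25 FPKM. Ly6c1 and Abcb1a have close relatives with which reads can be shared, so their values are uncertain to that extent. Ly6c2, also on chromosome 15, averaged 0.05 FPKM and was at most 0.28 FPKM in any mouse, and Abcb1b, also on chromosome 5, averaged 1.89 FPKM.

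The genes lie on 8 chromosomes of GRCm38, the assembly also named mm10. Cldn5 spans chr16:18776847-18778262, Rasip1 chr7:45627537-45639092, Slc38a5 chrX:8271381-8280179 and Tgm2 chr2:158116405-158146392. Slc2a1 spans chr4:119108745-119137330 and Mfsd2a chr4:122946850-122961194, on the same chromosome. Abcb1a spans chr5:8567091-8748575 and Flt1 chr5:147561604-147726438, also on one chromosome. Pecam1 spans chr11:106654213-106715281 and Ly6c1 chr15:75044018-75048920. Their longest annotated transcripts differ widely, from 844 bases for Ly6c1 and 1416 for Cldn5 to 4997 for Abcb1a and 6895 for Flt1.

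Promoter windows of 300 bases, from 250 before to 50 after the start of transcription, were available from RefSeq (GRCm38.p6) for 8 of the 10 genes, and Tgm2 and Pecam1 had no entry. The 5 windows below are those of the genes that varied most closely together across mice (Cldn5, Mfsd2a and Ly6c1, and separately Abcb1a and Flt1). Ly6c1 had a second window (chr15:75048614-75048913), which is not printed. They are written 5′ to 3′ on the strand of the gene, with capitals for each GGAA or its reverse complement TTCC, the core recognized by ETS factors such as ERG and FLI1 that are known for endothelial transcription.
Cldn5 (chr16:18776597-18776896, plus strand): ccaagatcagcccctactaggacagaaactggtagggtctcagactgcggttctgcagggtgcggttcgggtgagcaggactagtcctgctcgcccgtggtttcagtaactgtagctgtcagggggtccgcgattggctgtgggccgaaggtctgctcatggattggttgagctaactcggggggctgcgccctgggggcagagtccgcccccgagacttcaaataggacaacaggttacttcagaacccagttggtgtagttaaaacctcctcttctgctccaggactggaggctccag
Mfsd2a (chr4:122961139-122961438, minus strand): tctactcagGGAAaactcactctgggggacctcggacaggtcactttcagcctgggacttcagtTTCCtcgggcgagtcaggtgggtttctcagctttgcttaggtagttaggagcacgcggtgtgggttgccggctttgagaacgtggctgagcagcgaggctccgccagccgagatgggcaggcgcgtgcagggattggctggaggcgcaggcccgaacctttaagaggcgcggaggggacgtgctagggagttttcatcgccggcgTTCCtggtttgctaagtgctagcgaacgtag
Ly6c1 (chr15:75048788-75049087, minus strand): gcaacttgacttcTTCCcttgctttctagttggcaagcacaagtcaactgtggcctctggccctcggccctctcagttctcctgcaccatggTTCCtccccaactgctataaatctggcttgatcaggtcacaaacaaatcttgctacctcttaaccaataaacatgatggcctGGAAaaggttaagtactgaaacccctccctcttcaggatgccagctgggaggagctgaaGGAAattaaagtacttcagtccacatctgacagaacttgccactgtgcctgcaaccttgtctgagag
Abcb1a (chr5:8566841-8567140, plus strand): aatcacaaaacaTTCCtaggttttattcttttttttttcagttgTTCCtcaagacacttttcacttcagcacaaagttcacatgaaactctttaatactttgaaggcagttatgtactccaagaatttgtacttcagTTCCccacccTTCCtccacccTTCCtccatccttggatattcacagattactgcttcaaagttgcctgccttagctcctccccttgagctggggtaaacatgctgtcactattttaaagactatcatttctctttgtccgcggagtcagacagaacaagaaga
Flt1 (chr5:147725962-147726261, minus strand): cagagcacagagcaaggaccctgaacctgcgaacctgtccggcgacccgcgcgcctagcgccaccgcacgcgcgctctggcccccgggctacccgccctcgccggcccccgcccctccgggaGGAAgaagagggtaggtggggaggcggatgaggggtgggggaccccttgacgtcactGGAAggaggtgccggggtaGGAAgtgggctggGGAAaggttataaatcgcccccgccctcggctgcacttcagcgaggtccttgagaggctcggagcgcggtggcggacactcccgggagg

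The windows shared little in composition. CG dinucleotides numbered 29 in the Flt1 window, 22 in Mfsd2a, 12 in Cldn5, 2 in Abcb1a and 1 in Ly6c1, against a median of 7 in all 32851 windows, so that both sets held a window with many and a window with few. GGAA on either strand was found 3 times in Mfsd2a, 4 times in Ly6c1, 5 times in Abcb1a and 4 times in Flt1, and not in Cldn5; 96.0% of all windows hold it. The GC box GGGCGG was present in Cldn5, Flt1, Slc2a1 and Slc38a5 (35.7% of all windows), and TATAAA in Flt1, Slc2a1 and Ly6c1 (13.6%). CTTTGA, the core bound by the TCF/LEF factors of Wnt signaling, was present in Mfsd2a and Abcb1a (16% of all windows). AACAGGAA, a composite of a FOX and an ETS site that overlaps GGAA, was in none of the members' windows and in 2.65% of all windows, and the SOX core ATTGTT was in none of them and in 10.7%. These are matches of letters on both strands, and nothing about binding was measured.

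Rasip1, the Rap1 effector, had its highest values in Ctrl mice. It ranged from 2.78 to 3.96 FPKM in Ctrl mice (median 3.13), from 2.26 to 2.87 FPKM in EtOH mice (median 2.44) and from 2.42 to 3.33 FPKM in EtOH-UA mice (median 2.87). All 7 EtOH mice were below the Ctrl median and 5 of them were below the lowest Ctrl mouse, but the ranges of the groups overlapped. The EtOH mean (2.52 ± 0.25, SD, n = 7) was below the Ctrl mean (3.21 ± 0.37, SD, n = 9) by a log2 difference of -0.34 (SE 0.08). In EtOH-UA mice the mean was 2.81 ± 0.30 FPKM (SD, n = 7), and 3 of 7 mice lay below the lowest Ctrl mouse, with a log2 difference from Ctrl of -0.19 (SE 0.08). Whole hippocampus was sequenced, so fewer endothelial cells and less RNA per endothelial cell cannot be told apart, here or in the results that follow.
Rasip1 tended to be lower in mice with more of the choroid plexus transcript Ttr. With group means removed, Rasip1 and log2 Ttr had Pearson's r of -0.52 (permutation p = 0.0183) and Spearman's rho of -0.43 (permutation p = 0.0573) over 23 mice, with adjusted values of 0.0531 and 0.153 over the 40 relations computed, and r was -0.38 without the 2 most extreme mice. With a choroid plexus score as a covariate, the log2 difference of EtOH from Ctrl was -0.27 (SE 0.08). Rasip1 was also higher in libraries with a larger summed FPKM (r = 0.57, permutation p = 0.0053, rho = 0.52, permutation p = 0.011, adjusted p = 0.0212 and 0.0442, and r = 0.65 without the 2 most extreme mice), with r of 0.83 among Ctrl, 0.54 among EtOH and 0.51 among EtOH-UA mice. With summed FPKM as a covariate, added after the data were seen, the log2 difference was -0.31 (SE 0.07). Rasip1, Slc38a5 and Tgm2 were chosen by their group means. Refits of their differences, here and below, are therefore descriptions and not tests.

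Slc38a5, the glutamine carrier, had its lowest mean in Ctrl mice and its highest in EtOH-UA mice. Its values ran from 0.73 to 1.69 FPKM in Ctrl mice (median 0.98), from 1.09 to 1.65 FPKM in EtOH mice (median 1.42) and from 1.19 to 1.97 FPKM in EtOH-UA mice (median 1.64). All 7 EtOH and all 7 EtOH-UA mice were above the Ctrl median, and 8 of 9 Ctrl mice were below the lowest EtOH-UA mouse. The exception was Ctrl mouse 7, at 1.69 FPKM, which made the groups overlap. The log2 difference from Ctrl was 0.40 (SE 0.13) in EtOH mice and 0.58 (SE 0.13) in EtOH-UA mice, and without Ctrl mouse 7 these differences were 0.48 and 0.66. Without Ctrl mouse 8, whose omission lowered them most, they were 0.34 and 0.53. With a pseudocount of 1 they were 0.23 and 0.35. With group means removed, Slc38a5 and summed FPKM had r of -0.0084 (permutation p = 0.969, rho = 0.0099, permutation p = 0.966, adjusted p = 0.969 and 0.968, and r = -0.040 without the 2 most extreme mice).

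Tgm2, the transglutaminase, had its highest mean in EtOH-UA mice. Values were 2.1 to 4.11 FPKM in Ctrl mice (median 3.02), 2.62 to 4.01 FPKM in EtOH mice (median 3.15) and 3.17 to 5 FPKM in EtOH-UA mice (median 3.96). All 7 EtOH-UA mice were above the medians of both other groups, and the highest Ctrl and EtOH mice still overlapped with them. The log2 difference from Ctrl was 0.09 (SE 0.11) in EtOH mice and 0.42 (SE 0.11) in EtOH-UA mice. Ttr was higher in mice with more Tgm2 (r = 0.44 with group means removed, permutation p = 0.0542, rho = 0.46, permutation p = 0.0415, adjusted p = 0.128 and 0.125, and r = 0.45 without the 2 most extreme mice), and with the choroid plexus covariate the EtOH-UA difference from Ctrl was 0.36 (SE 0.11).

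Cldn5 had means of 14.4 ± 2.4 FPKM (Ctrl), 14.3 ± 3.0 FPKM (EtOH) and 16.5 ± 4.3 FPKM (EtOH-UA; SD; n = 9, 7 and 7), and its EtOH-UA range of 12.6 to 25 FPKM contained most values of the other groups. Pecam1 had means of 6.21 ± 0.41, 6.19 ± 0.78 and 6.50 ± 0.76 FPKM in the same order. The log2 differences of EtOH from Ctrl for these adhesion and junction genes were -0.01 (SE 0.13) for Cldn5 and -0.01 (SE 0.07) for Pecam1.
Among the transporters, Slc2a1 had means of 31.0 ± 2.8, 29.0 ± 3.2 and 31.8 ± 2.1 FPKM, and 6 of 7 EtOH mice were below the Ctrl median. Mfsd2a had means of 8.04 ± 0.63, 7.43 ± 1.13 and 8.42 ± 1.53 FPKM, again with 6 of 7 EtOH mice below the Ctrl median. The efflux pump Abcb1a had means of 8.60 ± 0.85, 8.35 ± 0.79 and 8.17 ± 0.39 FPKM. The receptor Flt1 was below the Ctrl median in all 7 EtOH mice, with means of 12.04 ± 1.44, 11.05 ± 0.84 and 11.61 ± 1.45 FPKM and a log2 difference of EtOH from Ctrl of -0.12 (SE 0.08). Ly6c1 had means of 26.8 ± 2.1, 25.7 ± 4.2 and 30.1 ± 4.5 FPKM.

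**Figure D1:**
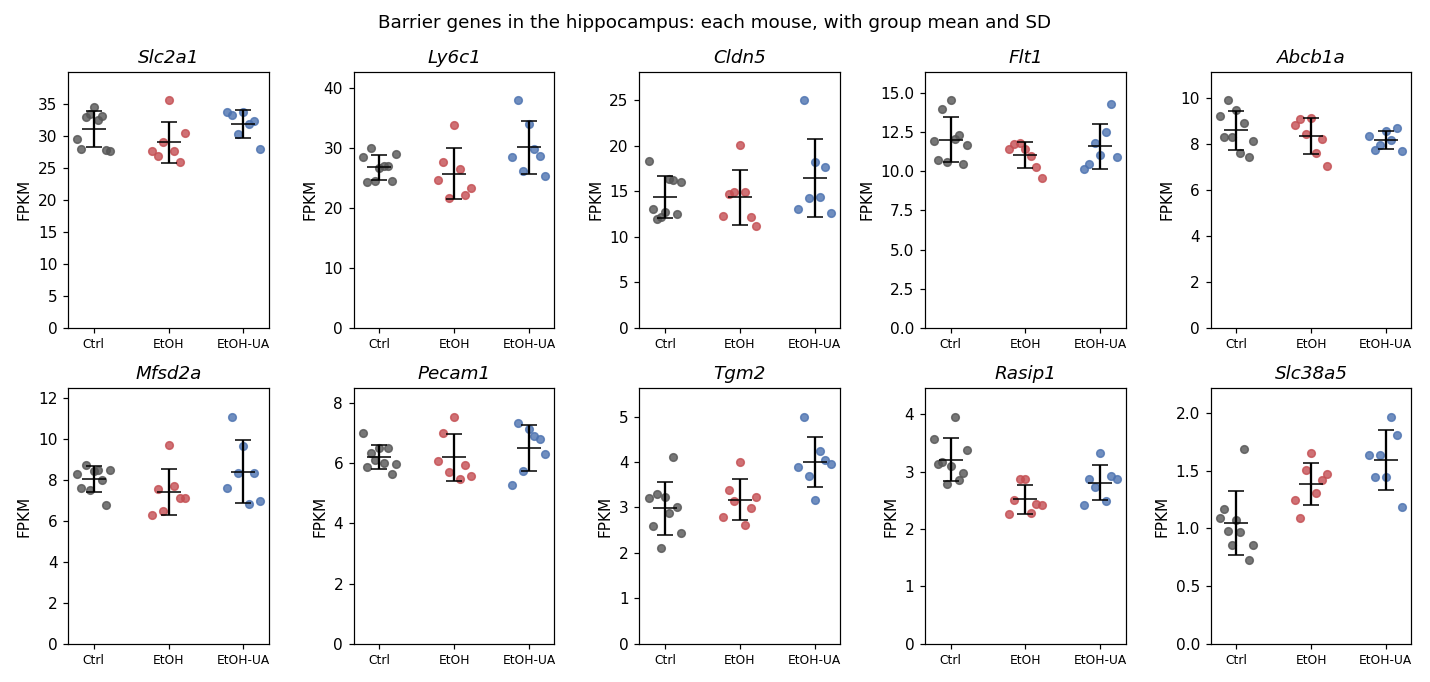
Each point is 1 mouse, the y axis is FPKM from 0, and bars give the mean and SD of the Ctrl (n = 9), EtOH (n = 7) and EtOH-UA (n = 7) groups. Rasip1 values of EtOH mice reach up to 2.87 FPKM where Ctrl mice begin at 2.78, Slc38a5 is above the Ctrl median in all alcohol-fed mice, and single mice such as EtOH mouse 4 (Mfsd2a 9.72 FPKM) and EtOH-UA mouse 2 (Cldn5 25 FPKM) stand above their groups.

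Counted against all genes, 0 of the 10 and 0% of 15985 genes passed an adjusted p under 0.05 in EtOH against Ctrl mice with limma and Benjamini-Hochberg adjustment. At an unadjusted p under 0.05, Slc38a5 was higher and Rasip1 lower, where 1.95% of all genes were higher and 1.10% lower. In EtOH-UA against Ctrl mice, 0% passed the adjusted threshold, Slc38a5 and Tgm2 were higher and Rasip1 lower at the unadjusted threshold, and 1.56% and 1.52% of all genes were higher and lower. The genes were chosen on these comparisons, so nothing is read from these counts. The median log2 difference of the 10 was -0.06 in EtOH against Ctrl mice and 0.05 in EtOH-UA against Ctrl mice, and that of all genes was -0.003 and 0.002.

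EtOH-UA and EtOH mice were then compared directly, with the same mice that enter the comparisons on which the genes were chosen. No gene of the 10 passed the adjusted threshold (0% of all genes did), and no pair of groups was free of overlap for any of them. Overlap was not counted over all genes, so nothing is read from its presence in these 10. The means of 9 of the 10 genes were higher in EtOH-UA mice, with Abcb1a the exception, and the median log2 difference was 0.16 against 0.0033 for all genes, of which 51.2% were higher. With the mean of the endothelial identity list as a covariate, 7 of the 10 were higher and the median was 0.09, and with summed FPKM as a covariate the median was also 0.09. These counts and medians include Rasip1, Slc38a5 and Tgm2, whose EtOH or EtOH-UA values chose them, so nothing is read from them. For these chosen genes the difference is given without a p-value. It was log2 0.33 (SE 0.12) for Tgm2, 0.18 (SE 0.14) for Slc38a5 and 0.15 (SE 0.08) for Rasip1. Among the members not chosen by their own values, only Ly6c1 had an unadjusted limma p under 0.05. Its mean was higher by log2 0.23 (SE 0.09, two-sided exact permutation p = 0.0711 over 3432 splits, 7 of 7 mice above the EtOH median). At the unadjusted threshold 1.83% of all genes were higher and 1.45% were lower.
The transporters Slc2a1, Mfsd2a and Abcb1a differed by less than Ly6c1. Slc2a1 was higher by log2 0.14 (SE 0.07, exact permutation p = 0.0653), in 7 of 7 mice above the EtOH median. Mfsd2a differed by 0.17 (SE 0.10, exact permutation p = 0.184). Abcb1a differed by -0.03 (SE 0.07, exact permutation p = 0.667).
Among the junction and signaling genes, Cldn5 was higher by log2 0.19 (SE 0.14, exact permutation p = 0.292). Pecam1 (0.07, SE 0.08, exact permutation p = 0.462) and Flt1 (0.06, SE 0.08, exact permutation p = 0.432) lay nearest to no difference. These p-values are not adjusted for the number of genes, and adjusted over all genes every member had p of at least 0.900 with limma.
Single libraries carried part of several differences. Without EtOH-UA mouse 2 the Cldn5 difference was 0.08 and the Mfsd2a difference 0.10, whereas without EtOH mouse 4 they were 0.27 and 0.24, and both mice are among the 3 libraries with the largest summed FPKM. With summed FPKM as a covariate, a choice made after seeing the data, Cldn5 differed by 0.02 (SE 0.08), Mfsd2a by 0.07 (SE 0.07), Rasip1 by 0.09 (SE 0.08), Ly6c1 by 0.14 (SE 0.06) and Tgm2 by 0.30 (SE 0.12).

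**Figure D2:**
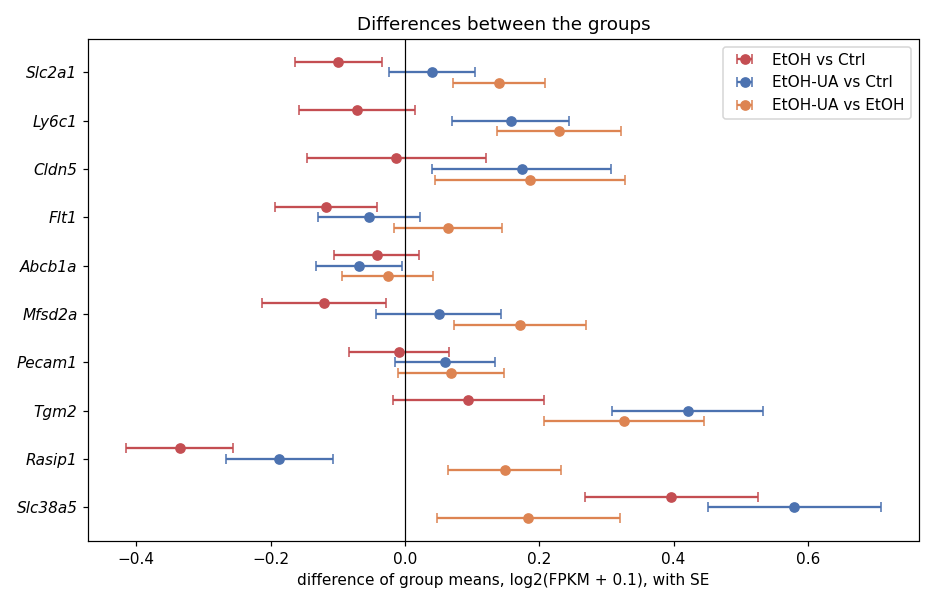
Points are differences between group means on the log2(FPKM + 0.1) scale and bars are their standard errors from the model of all 3 groups. In EtOH-UA against EtOH mice 9 of 10 points lie above 0, from 0.06 for Flt1 to 0.33 for Tgm2, and Abcb1a lies at -0.03; Rasip1 is lower than Ctrl in both alcohol-fed groups.

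Other genes of the barrier were read from lists that were written by hand, and none of their members passed the adjusted threshold in any of the 3 comparisons with limma. Counts of higher and lower means in the lists, and list medians, refer to mean values of log2(FPKM + 0.1). Over all genes tested, 48.6% had a higher mean in EtOH than in Ctrl mice. The share was 51.2% in EtOH-UA against Ctrl and 51.2% in EtOH-UA against EtOH mice. Of 17 further barrier transporters, 12 had a lower mean in EtOH than in Ctrl mice, and their median log2 difference was -0.05. The large neutral amino acid transporter Slc7a5 had a lower mean with alcohol (log2 -0.18, SE 0.06, unadjusted p = 0.00590, adjusted p = 0.999 with limma), with means of 19.2 ± 1.3 FPKM in Ctrl and 17.0 ± 1.8 FPKM in EtOH mice. Its partner subunit Slc3a2, at 40.5 FPKM over all mice, and the transferrin receptor Tfrc, at 36.6 FPKM, were the most abundant of that list. The monocarboxylate transporter family member Slc16a4 had a higher mean with alcohol (0.30, SE 0.12) and the organic anion transporter Slco2b1 a lower mean (-0.16, SE 0.07). In EtOH-UA against EtOH mice the list split 9 higher and 8 lower, with a median of 0.02.
Of 31 endothelial identity genes tested, 21 had lower means in EtOH than in Ctrl mice (median -0.06) and 22 had higher means in EtOH-UA than in EtOH mice (median 0.05). Adgrl4, an adhesion receptor of endothelium, had the smallest p of that list in both comparisons (-0.19, SE 0.08, and 0.25, SE 0.08), with means of 6.55 ± 0.86, 5.69 ± 0.56 and 6.77 ± 0.47 FPKM in Ctrl, EtOH and EtOH-UA mice. Vwf, the clotting factor stored in endothelial granules, had means of 2.19 ± 0.66, 2.16 ± 0.47 and 2.92 ± 0.63 FPKM, and was higher in EtOH-UA mice by 0.42 (SE 0.17) than in EtOH mice. Pltp, the phospholipid transfer protein, averaged 25.6 FPKM and was 0.27 higher (SE 0.12) in EtOH than in Ctrl mice. Itm2a, the most abundant gene of the list at 29.5 FPKM, had a difference of 0.01 (SE 0.06).
The means of the 12 other junction genes were higher in EtOH than in Ctrl mice for 10 of 12 (median 0.06) and lower in EtOH-UA than in EtOH mice for 8 of 12 (median -0.06), and none had an unadjusted p under 0.05 in any comparison. The scaffold genes Tjp1 and Afdn, at 19.6 and 17.4 FPKM, were the most abundant of them.
Among the 6 endothelial activation genes tested, all had higher mean log2 values than in Ctrl mice both in EtOH (median 0.13) and in EtOH-UA mice (median 0.13). Ackr1, at 0 in 6 of 9 Ctrl mice, had a lower FPKM mean in EtOH-UA (0.30) than in Ctrl mice (0.45). In EtOH-UA mice the smallest p-values belonged to the leukocyte adhesion molecule Icam1 (0.48, SE 0.15, with means of 0.80 ± 0.21 and 1.16 ± 0.28 FPKM) and to Lcn2 (1.55, SE 0.49), an acute phase protein that other cells also make. Vcam1 and Apln were the most abundant of them, at 9.59 and 4.12 FPKM. Of 6 caveolar genes 5 had higher means in EtOH-UA than in Ctrl mice (median 0.06), Cavin1 with 0.23 (SE 0.09), and the most abundant were Cav2 and Cavin3, at 12.8 and 6.63 FPKM.

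The partners of Rasip1, a list of 9 genes led by the Rap1 GTPases Rap1b and Rap1a (34.6 and 25.2 FPKM), had a median log2 difference of -0.01 in EtOH against Ctrl mice, with 4 higher and 5 lower, and of 0.05 in EtOH-UA against EtOH mice, with 6 higher and 3 lower. The 15 genes of Wnt and Norrin signaling, among them Ctnnb1 (139 FPKM) and the ligand Wnt7b (11.7 FPKM), had medians of -0.03 and 0.006. Of the 9 VEGF and angiopoietin ligands and co-receptors, Vegfb and Vegfa averaged 26.5 and 23.6 FPKM, and Vegfd had a lower mean in EtOH-UA than in EtOH mice (-0.63, SE 0.24), with list medians of 0.07 and 0.02. The 14 vascular basement membrane genes, led by Agrn (35.4 FPKM) and Itgb1 (15.7 FPKM), had medians of 0.07 and -0.03.
The 16 mural cell genes, with Vtn and Rgs5 (30.5 and 26.3 FPKM) the most abundant, had medians of -0.05 in EtOH against Ctrl and 0.03 in EtOH-UA against EtOH mice, and the smooth muscle actin Acta2 was 0.42 higher (SE 0.14) in EtOH-UA than in Ctrl mice and the pericyte gene Higd1b lower (-0.37, SE 0.15) in EtOH than in Ctrl mice. The 11 genes of astrocyte endfeet, with Slc1a3 (170 FPKM) and Gfap (111 FPKM), had medians of 0.04 and -0.007, the 9 of fibroblasts and meninges 0.02 and 0.13 (0.23 in EtOH-UA against Ctrl mice), with Ptgds (361 FPKM) and Dcn (29.7 FPKM), the 11 of microglia and macrophages -0.04 and 0.04, with C1qa and P2ry12 (29.8 and 15.6 FPKM), the 5 neuronal genes -0.04 and 0.02, and the 5 oligodendrocyte genes 0.13 and -0.11, with Mbp (938 FPKM). Gfap was 0.23 higher (SE 0.08) in EtOH-UA than in Ctrl mice and the connexin gene Gjb6 0.25 higher (SE 0.10) in EtOH-UA than in EtOH mice. The endfoot list as a whole split 7 higher and 4 lower in EtOH-UA against Ctrl mice (median 0.02). In EtOH-UA against EtOH mice it split 5 higher and 6 lower.
The 11 choroid plexus genes all had higher mean log2 values in EtOH than in Ctrl mice, with a median difference of 1.73. All had lower mean log2 values in EtOH-UA than in EtOH mice (median -0.49). Their FPKM means did not all go that way. In EtOH-UA against EtOH mice, Clic6 averaged 9.55 against 8.56 FPKM and Folr1 5.85 against 6.06 FPKM. The summed list had medians of 2126 FPKM in EtOH-UA and 1487 FPKM in EtOH mice. None of the 11 genes was at 0 in any mouse. Ttr and Enpp2, at 1560 and 213 FPKM, were the most abundant, and Clic6 (1.98, SE 0.91), Otx2 (1.77, SE 0.83) and Calml4 (1.73, SE 0.77) had the smallest p-values in EtOH against Ctrl mice. The means of all 5 blood cell genes were above those of Ctrl in both alcohol-fed groups (medians 0.35 and 0.66), with Hbb-bs and Hba-a1 (54.1 and 41.4 FPKM) the most abundant and Hba-a2 at 0.89 (SE 0.34), Hbb-bt at 0.85 (SE 0.36) and Alas2 at 0.62 (SE 0.23) in EtOH-UA against Ctrl mice. The blood cell list mean followed Cldn5 across mice (r = 0.56, permutation p = 0.00928, rho = 0.44, permutation p = 0.0437, adjusted p = 0.0337 and 0.125, and r = 0.52 without the 2 most extreme mice), and its part in the Cldn5 values was not tested.

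**Figure D3:**
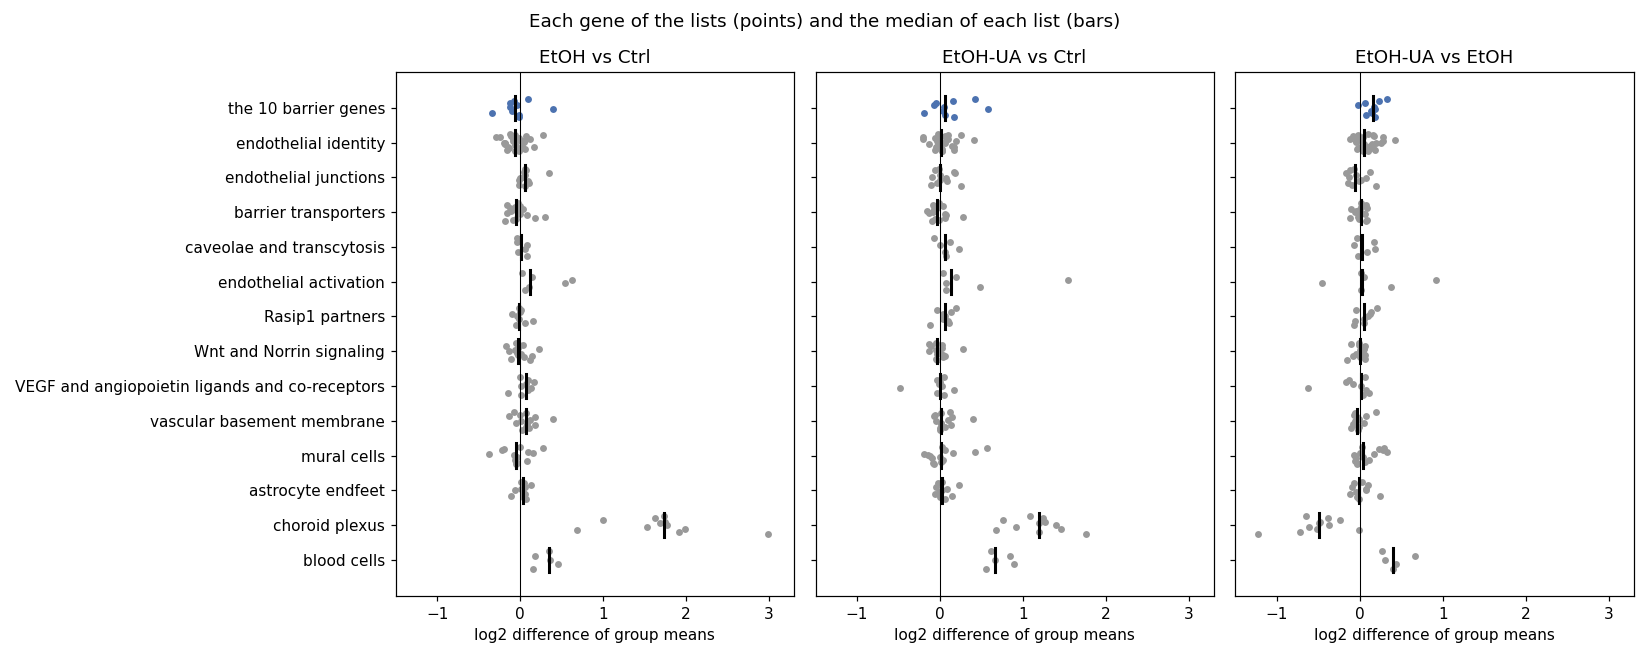
Points are the genes of each list, with those of the 10 barrier genes in blue, black bars are list medians, and the x axis is the log2 difference of group means. Choroid plexus genes spread to a median of 1.73 in EtOH against Ctrl mice, while the medians of the endothelial identity, junction, transporter and mural cell lists stay between -0.06 and 0.06 in all 3 comparisons.

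Across mice, with each group's mean removed, the genes tended to move together. Of the 45 pairs, 44 had a positive Pearson's r over 23 mice and the median r was 0.35. The closest pair was Mfsd2a and Ly6c1 (r = 0.83, permutation p = 0.00011, adjusted p = 0.00495 over 45 pairs, rho = 0.77, permutation p = 0.00012, adjusted p = 0.00540, and r = 0.67 without the 2 mice farthest from the median of Mfsd2a). Cldn5 went with Mfsd2a (r = 0.75, permutation p = 0.00036, adjusted p = 0.00540, rho = 0.63, permutation p = 0.00345, adjusted p = 0.0283, and r = 0.53 without the 2 farthest mice). Cldn5 also went with Ly6c1 (r = 0.75, permutation p = 0.00036, adjusted p = 0.00540, rho = 0.63, permutation p = 0.00289, adjusted p = 0.0283, and r = 0.54 without the 2 farthest mice). These 3 genes, a junction protein, a lipid transporter and a surface antigen, formed the tightest set.
A separate pair was the efflux pump Abcb1a with the VEGF receptor Flt1 (r = 0.665, permutation p = 0.00049, adjusted p = 0.00551, rho = 0.68, permutation p = 0.00062, adjusted p = 0.0139, and r = 0.56 without the 2 farthest mice). Cldn5 and Flt1 had an r of only 0.13 (permutation p = 0.573, rho = 0.28, permutation p = 0.213, adjusted p = 0.661 and 0.319, and r = 0.29 without the 2 farthest mice). Rasip1 and Slc38a5, with r of -0.08, were the only pair below 0 (permutation p = 0.749, rho = -0.04, permutation p = 0.870, adjusted p = 0.762 and 0.911, and r = -0.0079 without the 2 farthest mice).

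Much of the tightest set ran with a measure of the library. Cldn5 followed summed FPKM (r = 0.87, permutation p = 1e-05, the smallest that 100000 permutations can give, adjusted p = 0.0004 over 40 relations, rho = 0.79, permutation p = 1e-05, adjusted p = 0.0004, and r = 0.77 without the 2 mice farthest from the median), and did so within each group (r of 0.88 among Ctrl, 0.94 among EtOH and 0.88 among EtOH-UA mice). Mfsd2a (r = 0.78, permutation p = 0.00035, rho = 0.62, permutation p = 0.00342, adjusted p = 0.00280 and 0.0171, and r = 0.59 without the 2 farthest mice) and Ly6c1 (r = 0.77, permutation p = 0.00026, rho = 0.67, permutation p = 0.00086, adjusted p = 0.00280 and 0.00860, and r = 0.59 without them) did as well, within Ctrl mice with r of 0.38 for each, and within EtOH and EtOH-UA mice with r from 0.84 to 0.94. Abcb1a (r = -0.024, permutation p = 0.896, rho = -0.0079, permutation p = 0.968, adjusted p = 0.969 and 0.968, and r = -0.053 without the 2 farthest mice) and Flt1 (r = -0.18, permutation p = 0.465, rho = -0.086, permutation p = 0.704, adjusted p = 0.712 and 0.881, and r = -0.12 without them) lay near 0.
The order tended to follow transcript length, with exceptions. Slc38a5, with a longest transcript of 1983 bases, had r of -0.0084, and Rasip1, with 3202 bases, had 0.57. Across the 10 genes, the length of the longest annotated transcript and the r with summed FPKM had a Spearman's rho of -0.76, given as a description of 10 genes measured in the same 23 libraries. When the slope on summed FPKM was also removed, a step added after the values were seen, the r of Cldn5 with Mfsd2a went from 0.75 to 0.22 and with Ly6c1 from 0.75 to 0.25, whereas that of Cldn5 with Flt1 went from 0.13 to 0.60 and that of Abcb1a with Flt1 from 0.665 to 0.672. The median of all pairs was 0.36, and 41 of 45 stayed positive.

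**Figure D4:**
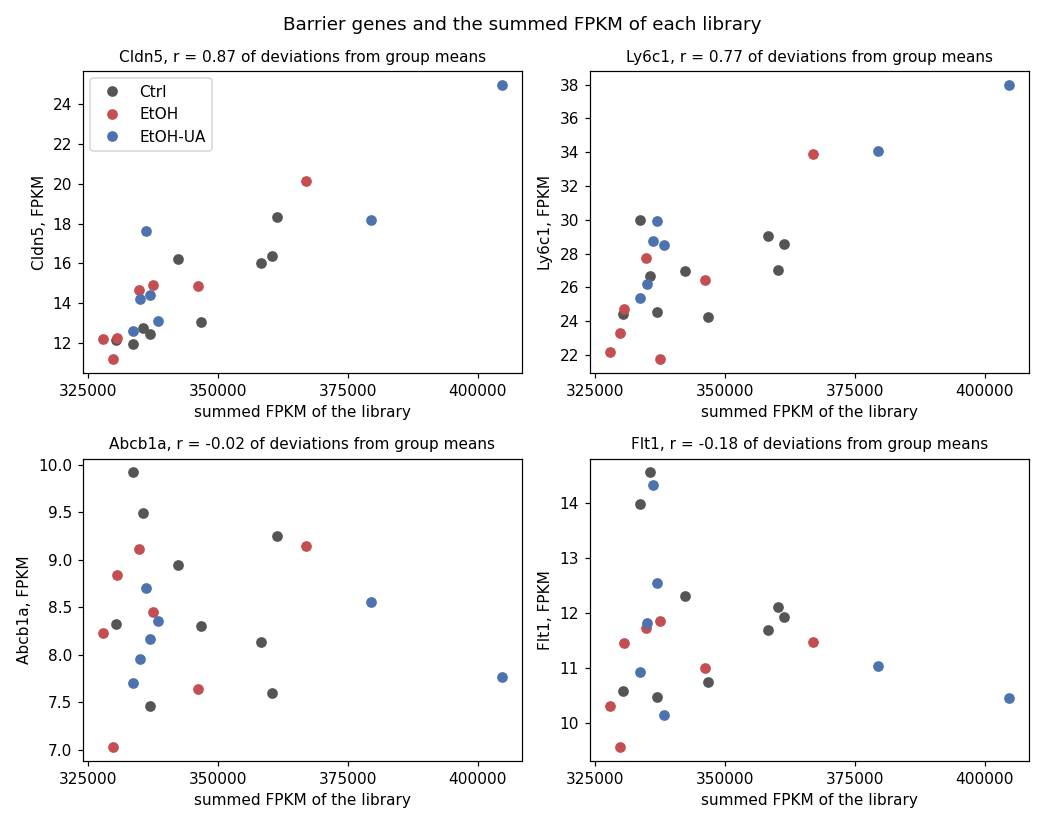
Each point is 1 mouse, with the summed FPKM of its library on the x axis and the gene's FPKM on the y axis. Cldn5 and Ly6c1 climb with the sum (r of 0.87 and 0.77 with group means removed) to 25 and 38.0 FPKM in EtOH-UA mouse 2, and Abcb1a and Flt1 do not (r of -0.02 and -0.18).

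**Figure D5:**
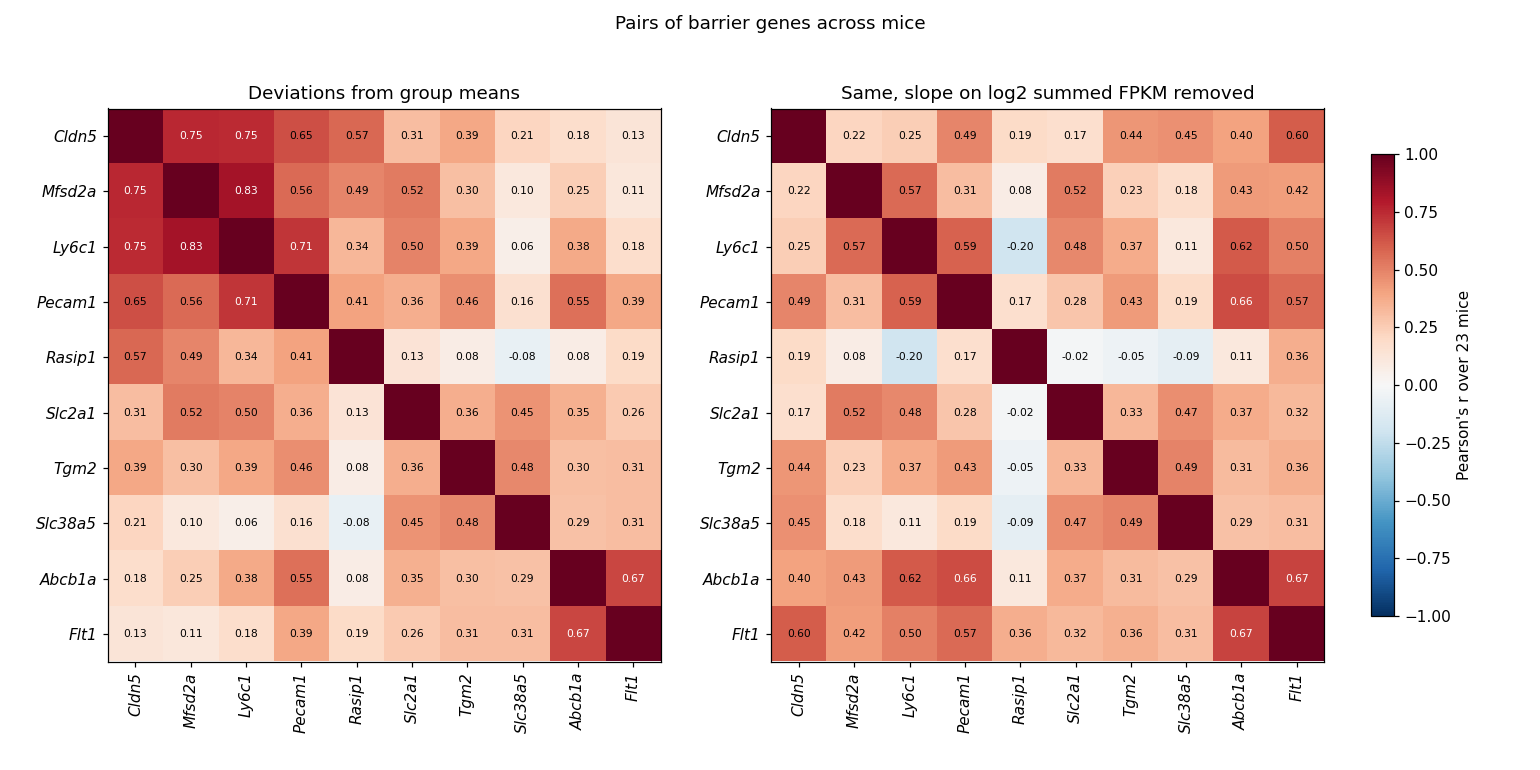
Cells give Pearson's r between 2 genes over 23 mice, with group means removed (left) and with the slope on log2 summed FPKM removed as well (right). The block of Cldn5, Mfsd2a and Ly6c1 at 0.75 to 0.83 on the left is between 0.22 and 0.57 on the right, and the pair of Abcb1a and Flt1 is at 0.665 and 0.672.

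The 10 genes were compared with the mean of the endothelial identity list, which holds none of them. The share of all genes with a positive r was not counted, so the sign alone does not test the label. Each of the 10 genes had a positive r with the list mean. It was 0.69 for Pecam1 (permutation p = 0.0002, rho = 0.68, permutation p = 0.00022, adjusted p = 0.0028 and 0.00387, and r = 0.65 without the 2 farthest mice) and 0.69 for Flt1 (permutation p = 0.00032, rho = 0.71, permutation p = 0.00029, adjusted p = 0.0028 and 0.00387, and r = 0.60 without them). The lowest was that of Rasip1, at 0.40 (permutation p = 0.0754, rho = 0.38, permutation p = 0.0817, adjusted p = 0.168 and 0.192, and r = 0.37 without the 2 farthest mice), and Slc38a5 followed with 0.46 (permutation p = 0.0339, rho = 0.41, permutation p = 0.0654, adjusted p = 0.0848 and 0.163, and r = 0.46 without them). As a percentage of the summed identity list, Rasip1 made up 1.63 ± 0.18 (Ctrl), 1.31 ± 0.12 (EtOH) and 1.37 ± 0.16 (EtOH-UA) (SD; n = 9, 7 and 7). Slc38a5 made up 0.53 ± 0.12, 0.72 ± 0.10 and 0.78 ± 0.14, and Tgm2 1.51 ± 0.22, 1.64 ± 0.19 and 1.95 ± 0.20. The order of the group means was the same as in FPKM. The summed list had medians of 205 (Ctrl), 193 (EtOH) and 208 FPKM (EtOH-UA), and the shares use the values that chose these genes. Nothing is therefore read from this order.

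Outside the 10 genes, likeness was measured as the Pearson's r of each gene's deviations with the mean deviation of the 10 over 23 mice, among 12894 genes averaging 1 FPKM or more, whose median r was 0.10. The 10 most alike were Matk (r = 0.86), Acvrl1 (0.84), Nsmf (0.83), Vtn (0.83), Smpd2 (0.82), Kcne1l (0.82), Plin2 (0.82), Rasl10b (0.81), Phkg2 (0.81) and Tbc1d22a (0.81). Acvrl1, the endothelial receptor ALK1, and Vtn, a pericyte transcript in brain, are vascular, and Matk, Nsmf and Rasl10b are abundant neuronal transcripts at 89.2, 233 and 76.9 FPKM. The r of these 10 with summed FPKM ran from 0.43 (Acvrl1) to 0.86 (Matk), with 0.63 for Vtn, and the mean of the 10 itself did so with r of 0.62. By list, the median r with the 10 was 0.49 for endothelial identity genes and 0.43 for mural cells, 0.38 for microglia and macrophages, 0.28 for barrier transporters and 0.02 for the other junction genes, against -0.16 for oligodendrocyte and -0.01 for neuronal genes.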

How the data were processed

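Hippocampal RNA of 23 mice had been sequenced. Per the methods, the authors sequenced poly(A)+ RNA, whereas the labels name total RNA. They aligned reads with Bowtie2 to mm10, quantified them with RSEM and deposited FPKM values for 19733 genes (the submitters' processing notes list Bowtie2 2.2.5 and RSEM 1.2.8, with HISAT2 2.1.0 also named). FPKM are scaled for length and library size, so a count test was not run, and no counts give the depth.

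The name of each column gave its group. Values were transformed as log2(FPKM + 0.1), which understates changes of low genes, and a single model of 3 groups was fitted to the 15985 genes averaging 0.1 FPKM or more (limma 3.58.1, R 4.3.3, eBayes with trend), with Benjamini-Hochberg adjustment over all genes. The fit was tested on simulated data. For the genes not chosen by their own values, EtOH-UA against EtOH mice was also tested over all splits of the mice (exact permutation, two-sided), and correlations with 100000 permutations within groups. The 10 genes and the 17 lists were chosen with earlier results of these data known. Named genes were all 10, per list the 2 most abundant and up to 3 with the smallest unadjusted p under 0.05, and the 10 most alike; 1 of these genes is not reported here. Per the methods mice shared cages, but which mice did is not given in the sources used here, so p-values measure the spread between these mice. Alternatives were pseudocounts of 1 and 0.01, other filters, scalings and covariates, and leaving out each mouse. Summed FPKM as a covariate and libraries left out by it were added after the data were seen.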

Additional observations from a re-analysis of the deposited data

How the results depend on the processing

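The count of genes past the adjusted threshold (limma) was 0 in all 3 comparisons and stayed 0 under every alternative tried, except that with single mice left out it ran from 0 to 1 in each comparison: LOC115488002 in EtOH against Ctrl mice without Ctrl mouse 9, and LOC101055676 in both EtOH-UA comparisons without EtOH-UA mouse 6 or 7 (named after their values were seen). None of the 10 barrier genes passed in EtOH-UA against EtOH mice under any alternative. With the vascular covariate, the EtOH-UA difference from EtOH reversed for Pecam1 (-0.0049) and Flt1 (-0.013), and was 0.05 for Cldn5, 0.10 for Slc38a5, 0.10 for Mfsd2a and 0.15 for Ly6c1. At an unadjusted p under 0.05, 487, 492 and 523 genes were counted in EtOH against Ctrl, EtOH-UA against Ctrl and EtOH-UA against EtOH mice; without the 3 libraries of largest summed FPKM these were 1922, 1277 and 456, with summed FPKM as a covariate 620, 877 and 488, and without EtOH mouse 4 938 in EtOH against Ctrl and 1240 in EtOH-UA against EtOH mice. The cause was not tested. The median r between members ran from 0.333 to 0.358 under the 4 alternatives. Depth limits Slc38a5 most, at 43.8 fragments per mouse. No paired analysis was possible because the groups hold different mice and the columns carry no replicate number of the labels.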

Other observations

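No value among the 10 genes was set apart from its group by Dixon's test in 30 groups of values (about 1.5 expected by chance). The widest gaps belonged to EtOH mouse 4, which was highest of the EtOH mice for Mfsd2a (9.72 FPKM, next 7.70), Cldn5 (20.1, next 14.9), Slc2a1 (35.5, next 30.4) and Ly6c1 (33.9, next 27.8), and to EtOH-UA mouse 2 for Cldn5 (25 FPKM, next 18.2). Leaving out the 3 libraries of largest summed FPKM, chosen after seeing the data, removes only EtOH mouse 4 from EtOH against Ctrl mice. The log2 difference of EtOH from Ctrl was then -0.19 (SE 0.06) for Mfsd2a, -0.15 (SE 0.06) for Slc2a1 and -0.14 (SE 0.06) for Ly6c1, and -0.37 (SE 0.08) for Rasip1. It was -0.10 (SE 0.10) for Cldn5, -0.06 (SE 0.07) for Pecam1, -0.06 (SE 0.07) for Abcb1a and -0.13 (SE 0.08) for Flt1. In that fit 957 of 15997 genes were lower at an unadjusted limma p under 0.05, against 176 of 15985 with all mice. EtOH mouse 4 was the highest EtOH mouse for Mfsd2a, Slc2a1 and Ly6c1, so nothing is read from their larger differences.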
